A study of Mus musculus with 8 samples.

Results

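The genes described here encode zinc finger proteins that carry the mouse name Zfp followed by a number. They were chosen by name and by measured level, as the rows of the gene table whose name has that form, with Zfp36 left out, with a valid Cuffdiff status in all groups and with at least 2 FPKM (fragments per kilobase of transcript, scaled to sequencing depth) in at least 1 group. Such a name was found for 333 of the 23356 genes in the table, none of them had a failed status, 144 stayed under 2 FPKM in all groups and 188 remained. The choice used the FPKM of all 4 groups, so the levels of these 188 genes and every count or median over them are descriptions.

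Bone marrow-derived dendritic cells (DCs) of adult mice, labelled as of C57BL/6 background and given as C57BL/6N in the study's methods, were grown for 6 days with GM-CSF and IL-4, each at 10 ng/ml. Wild-type (WT) DCs and DCs of Arhgef2-/- mice, called GEF-H1-/- DCs here, were left untreated or treated for 5 h with 100 nM ansamitocin-P3, a maytansine-site drug that destabilizes microtubules. Arhgef2 encodes GEF-H1, a guanine nucleotide exchange factor that is held on microtubules and acts on RhoA. The deletion was present in all cells of the animal, and the cultures were not sorted before RNA extraction. Each of the 4 groups had 2 libraries, but the table holds 1 combined FPKM per group with its 95% Cuffdiff interval, so that no SD between libraries, no n above the pooled value and no test could be had, and the depth reached by the libraries is unknown. Whether the libraries came from separate mice is not stated in the labels.

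C2H2 zinc fingers are short loops in which a pair of cysteines and a pair of histidines hold a zinc ion, and arrays of them read DNA sequence. Many of the proteins also carry a KRAB domain, which recruits the corepressor TRIM28 and through it the histone methyltransferase SETDB1 and HP1 proteins, a pathway best known for silencing retroelements. Others are activators, RNA-binding proteins or ribosome factors that share only the finger fold. The genes lie in clusters that grew by tandem duplication, and their mRNAs are in general of low abundance and rapid turnover. In DCs the best known member is Zfp366, which encodes DC-SCRIPT, a DNA-binding regulator of DC differentiation and cytokine expression.

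The coding DNA of the first finger motif is shown for some of the members with the largest falls and rises in treated WT DCs. Relatives of these that changed in the same direction were added. Zfp608, Zfp61 and Zfp862 are not shown, although they changed more than some of those printed. These stretches show what the members share and where reads of related genes could be confused. Capitals mark the codons of the 2 cysteines and 2 histidines matched by the motif, which are taken to bind zinc. In the stretch of Zfp954 a later cysteine codon, left in lower case, also fits the motif with 2 residues between the cysteines. Its first capital codon may therefore not mark a cysteine that binds zinc. Each stretch was read from GENCODE M21 transcripts on GRCm38, lies within a coding exon and is written 5′ to 3′ on the gene's own strand. The first 5 belong to genes that fell, the other 4 to genes that rose.
Zfp366 (chr13:99229086-99229148, plus strand, exon 2 of 5): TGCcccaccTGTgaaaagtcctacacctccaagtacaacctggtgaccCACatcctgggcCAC
Zfp930 (chr8:69227964-69228026, plus strand, exon 4 of 4): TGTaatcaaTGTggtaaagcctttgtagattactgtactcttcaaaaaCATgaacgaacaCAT
Zfp958 (chr8:4628289-4628351, plus strand, exon 4 of 4): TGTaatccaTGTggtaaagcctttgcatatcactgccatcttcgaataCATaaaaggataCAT
Zfp932 (chr5:110008753-110008815, plus strand, exon 4 of 4): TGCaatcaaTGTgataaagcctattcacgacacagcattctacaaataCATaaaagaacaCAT
Zfp961 (chr8:71968080-71968142, plus strand, exon 4 of 4): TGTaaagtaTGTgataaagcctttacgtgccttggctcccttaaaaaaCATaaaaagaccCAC
Zfp948 (chr17:21587193-21587255, plus strand, exon 6 of 6): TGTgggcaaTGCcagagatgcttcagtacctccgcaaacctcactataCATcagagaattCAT
Zfp52 (chr17:21560453-21560515, plus strand, exon 5 of 5): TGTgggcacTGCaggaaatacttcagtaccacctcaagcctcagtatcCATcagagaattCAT
Zfp954 (chr7:7115884-7115952, minus strand, exon 5 of 5): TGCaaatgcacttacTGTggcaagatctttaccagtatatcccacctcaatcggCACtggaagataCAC
Zfp821 (chr8:109722923-109722985, plus strand, exon 8 of 9): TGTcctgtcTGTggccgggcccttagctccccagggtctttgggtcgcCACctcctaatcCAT

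The stretches of Zfp930 and Zfp958 had the same base at 50 of 63 positions, or 79.4%, and those of Zfp930 and Zfp932 at 74.6%. Zfp961 shared 61.9% of the positions with Zfp930. The stretch of Zfp948 matched that of its neighbour Zfp52 at 84.1% of the positions. Zfp366 shared between 34.9% (with Zfp930) and 49.2% (with Zfp821) with the other stretches of equal length. The falling genes Zfp930, Zfp958, Zfp932 and Zfp961 were closer to each other in this finger than to Zfp948 or Zfp52. With the latter they shared 41.3 to 49.2%. Relatives that changed in the same direction were printed by choice, so this closeness says nothing about the direction of change.

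The 188 genes were expressed at low level. The median of their mean FPKM over the 4 groups was 5.49 against 14.4 for the 10527 genes that passed the same limit, and 76.6% of them averaged under 10 FPKM against 38.5% of all genes. In 163 of them the FPKM reached 2 in all 4 groups, whereas 8 averaged under 2. The highest genes just outside the limit were Zfp606 at 1.998, Zfp455 at 1.973 and Zfp750 at 1.954 FPKM, and the lowest just inside were Zfp946 at 2.019, Zfp341 at 2.067 and Zfp719 at 2.102. The median FPKM of the members was 5.29 in untreated WT DCs, 5.59 in treated WT DCs, 5.63 in untreated and 5.32 in treated GEF-H1-/- DCs. The family as a whole therefore stood at nearly the same level in all groups, with a summed FPKM between 1534 and 1620. The 95% interval of a member spanned 45.2 to 46.1% of its FPKM at the median, which limits what a single value can show. For 1 member, Zfp771, a group value lay outside its own interval.

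The most abundant member was Zfp207, which encodes BuGZ, a microtubule-binding protein that loads BUB3 on kinetochores. Its FPKM was 122 in untreated WT DCs, 143 in treated WT DCs and 126 in both groups of GEF-H1-/- DCs, so that on the log2(FPKM + 1) scale it differed by 0.23 with drug in the former genotype and by 0.0004 in the latter. It stood far above the next genes. Zfp706 averaged 38.7 FPKM, the RNA-binding protein gene Zfp106 averaged 38.2, the corepressor gene Zfp703 34.8 and Zfp710 32.1. Zfp91, an E3 ubiquitin ligase gene of the noncanonical NF-κB pathway, averaged 29.1 FPKM, the corepressor gene Zfp217 28.9, Zfp330 25.3, Zfp384 25 and the ribosome maturation factor gene Zfp622 22.8. The intervals of these 9 genes overlapped between neighbours in this order, so that the order of neighbours was not resolved. Genes further apart could differ, as in untreated WT DCs Zfp106 (30 to 44.4 FPKM) lay above Zfp622 (17.8 to 28.8 FPKM).

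The targeted gene stood at 42.3 and 45.9 FPKM in untreated and treated WT DCs and at 4.59 and 4.16 in GEF-H1-/- DCs. All 7 DC markers were above 0, with Cd74 at 3073 to 4935 FPKM and Ccl22 at 2010 to 3445, although Cd209a was at 0.808 to 3.3 only. The 4 neutrophil markers summed to 30126 and 35546 FPKM in the WT groups and to 20969 and 21427 in the GEF-H1-/- groups, a sum carried by S100a8, whose values lay above the upper end of their own intervals in all 4 groups. Without drug, S100a8 was lower in GEF-H1-/- DCs (-0.84) and S100a9 near equal (-0.09), while Elane (1.11) and Mpo (1.23) were higher, with a list median of 0.51. The untreated Elane intervals were wide, 0 to 93.1 FPKM in WT and 0 to 152 in GEF-H1-/- DCs. Its difference, on which the list median rests, was therefore not resolved. The 3 basophil and mast cell markers summed to 177 and 185 against 322 and 309 FPKM. The 3 macrophage markers in the table summed to 176 and 139 FPKM in WT and 216 and 197 in GEF-H1-/- DCs. Of these, Mertk went from 5.46 to 0.778 FPKM with drug in WT DCs (-1.86) and Csf1r from 84.9 to 58.7 (-0.53), and in the knockout Mertk differed by -0.65 and Csf1r by -0.22. T, B, NK and erythroid markers summed to at most 8.63 FPKM per list in any group, and none of their genes in the table was at 0 in any group. Cd68, the other macrophage marker, differed with drug by -0.10 in WT DCs and by -0.04 in GEF-H1-/- DCs. Of the 7 DC markers, Zbtb46 (0.54) and Cd209a (-0.64) differed by over 0.5 with drug in WT DCs. The same markers also did so between the untreated genotypes (-0.65 and 0.61). The cultures thus held RNA of several myeloid types, some of whose markers moved with genotype or with drug. Their part in the values below was not tested. In such bulk RNA fewer cells of a type and less RNA per cell cannot be told apart.

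In WT DCs ansamitocin-P3 changed few of the members. A gene was counted as changed when log2(FPKM + 1) moved by over 0.5, about 1.41-fold, a scale that understates the change of low genes. Of 188 members 10 rose (5.32%) and 12 fell (6.38%), against 12.9% of all 10527 genes that rose and 11.1% that fell. In either direction this gave 11.7% of the members against 24.0% of all genes. Only Zfp366 moved by over 1, as did 5.29% of all genes. The median difference of the members was 0.02, with quartiles at -0.22 and 0.21, and that of all genes 0.01, with quartiles at -0.26 and 0.27. The intervals of both groups were apart for 9 members that were higher (4.79%, against 9.48% of all genes) and 9 that were lower (4.79%, against 7.41%).

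**Figure D1:**
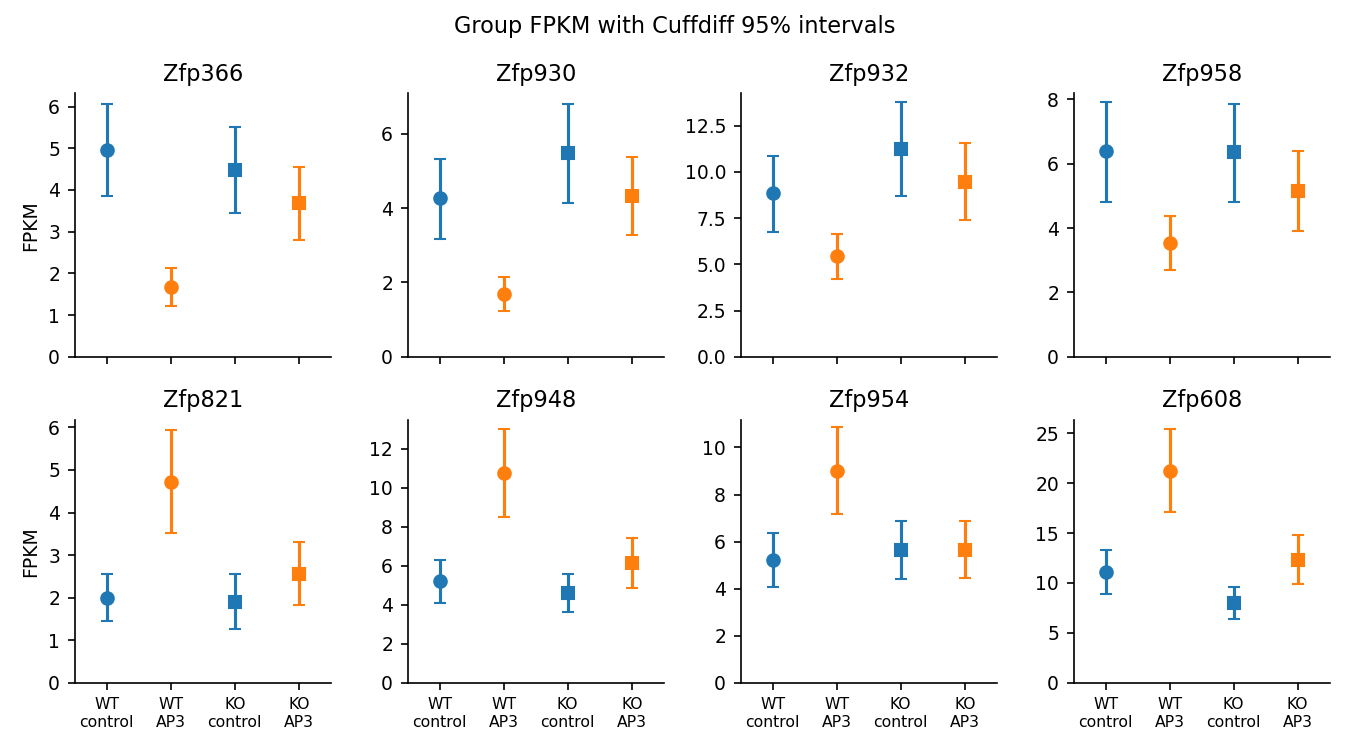
FPKM (linear axis from 0) of 8 Zfp genes in untreated (control) and ansamitocin-P3-treated (AP3) WT DCs (circles) and GEF-H1-/- DCs (KO, squares); bars are the 95% intervals of the combined group value. The treated WT value of each of the 4 genes in the upper row lies below that of untreated WT DCs, and in each of the 4 genes of the lower row above it, while the intervals of the 2 GEF-H1-/- groups overlap in all but Zfp608.

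Zfp366 fell most. Its FPKM was 4.96 (95% interval 3.86 to 6.07) in untreated WT DCs, 1.67 (1.22 to 2.12) in treated WT DCs, 4.48 (3.45 to 5.51) in untreated and 3.68 (2.81 to 4.55) in treated GEF-H1-/- DCs. The treated WT group was the single low group, at 0.337 of its control, and its interval met that of no other group. On the log2(FPKM + 1) scale the difference was -1.16 with GEF-H1 present and -0.23 without it. The macrophage markers Mertk and Csf1r fell in the same comparison, as given above, and their part in the falls of Zfp genes was not tested.

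Zfp930, Zfp958 and Zfp932, all with 12 or more finger motifs, were among the next largest falls, as was Zfp61 with 8. Zfp930 stood at 4.27 (3.18 to 5.32), 1.70 (1.24 to 2.14), 5.48 (4.14 to 6.80) and 4.34 (3.28 to 5.37) FPKM in the 4 groups in the same order. As for Zfp366, only the treated WT DCs were low, with a difference of -0.97 in WT, against -0.28 in GEF-H1-/- DCs. Zfp958 stood at 6.39, 3.54, 6.36 and 5.16 FPKM, a difference of -0.70 in WT, against -0.26 in GEF-H1-/- DCs. Zfp932, a KRAB protein gene whose product represses retroelement-derived enhancers, stood at 8.87, 5.43, 11.2 and 9.47 FPKM, with the treated WT group lowest and the untreated GEF-H1-/- group highest. Of its 35-base stretches, 68.1% also occurred in transcripts of other genes, chiefly Gm15446, so that its reads and those of Gm15446 may have been split between them in counting. Zfp930, Zfp958 and Zfp932 were also lower after treatment in GEF-H1-/- DCs, but within the threshold. Zfp61 differed from these genes in that its fall passed the threshold in both genotypes. It stood at 3.48 and 1.91 FPKM in WT DCs, against 3.69 and 2.23 in GEF-H1-/- DCs. The other 7 that fell were Zfp862, Zfp60, Zfp251, Zfp961, Zfp710, Zfp873 and Zfp951, with differences from -0.61 to -0.51. Zfp710, at 40.0 FPKM in untreated and 27.3 in treated WT DCs, was the only gene of the 12 with a mean above 10 FPKM. It stood at 34.7 and 26.4 FPKM in GEF-H1-/- DCs, and its intervals overlapped in both genotypes, as did those of Zfp961 and Zfp873 in WT DCs. Zfp862 is a pseudogene, Zfp862-ps, in GENCODE M21.

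Among the genes that rose, Zfp821 stood at 2.003 (1.44 to 2.56), 4.73 (3.51 to 5.95), 1.90 (1.26 to 2.54) and 2.57 (1.82 to 3.32) FPKM in untreated WT, treated WT, untreated GEF-H1-/- and treated GEF-H1-/- DCs. The treated WT DCs were the single high group, 2.36-fold above their control. Zfp948 followed the same order at 5.20, 10.8, 4.60 and 6.15 FPKM, a difference of 0.92 in WT, against 0.35 in GEF-H1-/- DCs. Zfp608, a single-finger relative of the cohesin loader partner Zfp609, stood at 11.1 (8.92 to 13.3), 21.3 (17.1 to 25.4), 7.97 (6.38 to 9.58) and 12.3 (9.85 to 14.8) FPKM. It rose in both genotypes, by 0.88 and 0.57, and ended in treated GEF-H1-/- DCs close to the level of untreated WT DCs. Zfp609 itself stood at 12.5, 17.4, 12.6 and 15.7 FPKM, differences of 0.45 and 0.29 that stayed within the threshold.

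Zfp954 stood at 5.22 and 9.02 FPKM in WT DCs, against 5.64 and 5.66 in GEF-H1-/- DCs. Zfp382, which encodes a KRAB repressor, stood at 2.47 and 4.49 against 2.45 and 2.79 FPKM. Zfp523, the mouse counterpart of human ZNF76, stood at 6.36 and 10.5 against 6.02 and 6.61 FPKM. In these genes the 2 untreated groups and the treated GEF-H1-/- group lay together and the treated WT group above them. For Zfp382, however, the intervals of treated WT (3.454 to 5.515 FPKM) and treated GEF-H1-/- DCs (2.081 to 3.495 FPKM) overlapped. Zfp52 stood at 6.24 and 9.96 FPKM in WT DCs, against 6.08 and 6.32 in GEF-H1-/- DCs. Zfp189 was less abundant, at 1.26 and 2.35 against 1.20 and 1.20 FPKM, and passed the 2 FPKM limit only through the treated WT group. It therefore had to differ, and a limit on the mean of the groups, which leaves it out, gave 9 rises in WT DCs, 8 members lower between the treated groups and 7 on the higher side of the difference of drug effects. Zfp516, an activator of the brown-fat gene Ucp1, stood at 7.64 and 11.6 against 7.003 and 8.01 FPKM. Zfp653 rose by 0.52 only, and its intervals in WT DCs, 0.567 to 6.83 and 2.02 to 9.42 FPKM, overlapped.

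In GEF-H1-/- DCs ansamitocin-P3 changed 2 members. Zfp608 rose by 0.57 (0.532% of the members, against 4.02% of all genes that rose) and Zfp61 fell by 0.54 (0.532%, against 2%). No member moved by over 1 in these DCs, as did 1.13% of all genes. The median difference was -0.02, and the median size of the difference regardless of sign was 0.108, compared with 0.125 over all genes. In WT DCs these sizes were 0.218 for the members and 0.263 for all genes. The next largest differences in GEF-H1-/- DCs belonged to Zfp703 (-0.46), Zfp692 (-0.42), Zfp324 (-0.40), Zfp704 (0.38) and Zfp948 (0.35), none past the threshold.

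The 2 drug comparisons share no library, so that their values can be set against each other. The sign was the same in both genotypes for 139 members (73.9%) against 75.9% of all genes, and the difference was larger in WT DCs for 147 members (78.2%) against 78.4% of all genes. Of the 22 members that changed in WT DCs, 21 had the same sign in GEF-H1-/- DCs, the exception being Zfp189 at -0.0043, and 2 passed the threshold in both. The matching shares among all genes that changed in WT DCs were not counted, so these counts are not read as a trait of the members. The members thus moved less than all genes in both genotypes, while their signs and the share with the larger change in WT DCs were near those of all genes.

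**Figure D2:**
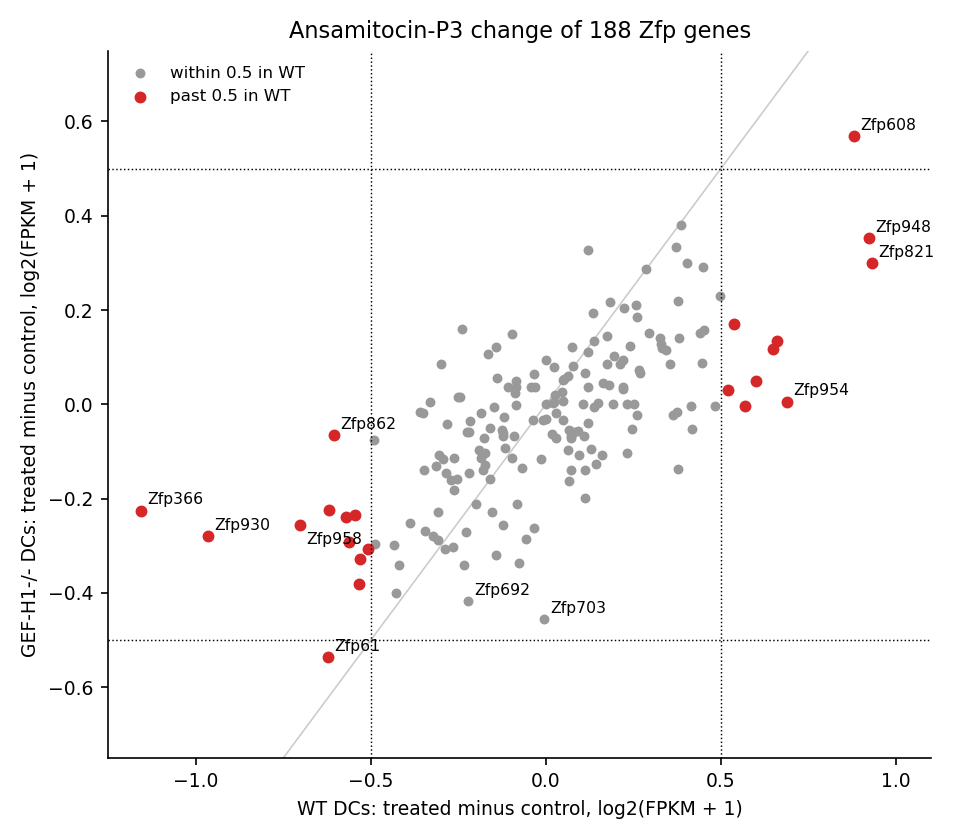
Difference between treated and untreated cells on the log2(FPKM + 1) scale in WT DCs (horizontal) and GEF-H1-/- DCs (vertical) for the 188 Zfp genes; dotted lines mark 0.5 either way and the grey diagonal equal change. The 22 genes in red passed 0.5 in WT DCs, of which 2, Zfp608 and Zfp61, also passed it in GEF-H1-/- DCs.

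Subtracting the drug effect in the knockout from that in WT DCs gave over 0.5 for 8 members (4.26%, against 6.94% of all genes) and under -0.5 for 3 (1.60%, against 5.22%), in either direction 5.85% against 12.2%. On the higher side were Zfp954 (0.68), Zfp821 (0.63), Zfp189 and Zfp948 (0.57 each), Zfp52 (0.55), Zfp523 and Zfp382 (0.53 each) and Zfp771 (0.51). On the lower side were Zfp366 (-0.93), Zfp930 (-0.69) and Zfp862 (-0.54). Zfp771 passed this threshold without passing that of either drug comparison, and its treated WT value of 15.8 FPKM lay above the upper end of its own interval, 15.1. With 1 value per group this difference of differences was not tested.

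Without drug, none of the 188 members differed by over 0.5 between the genotypes, against 6.86% of all genes (3.89% higher and 2.96% lower in GEF-H1-/- DCs). With a pseudocount of 0.1 FPKM 1 member passed. Intervals were apart for no member, against 2.52% of all genes that were higher and 1.81% that were lower. The largest differences were those of Zfp692 (0.45, with 4.55 FPKM in WT, against 6.58 in GEF-H1-/- DCs), Zfp703 (0.43, 32.1 and 43.6 FPKM), Zfp951 (0.36), Zfp672 (0.35) and Zfp593 (0.35). On the other side were Zfp608 (-0.43, 11.1 and 7.97 FPKM), Zfp296 (-0.29), Zfp770 (-0.26), Zfp281 (-0.26) and Zfp709 (-0.25). In the same comparison the basophil and mast cell markers given above were higher in GEF-H1-/- DCs, and the neutrophil markers differed in both directions. Their part in the values of the members was not tested.

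Between the treated groups, 4 members were higher in GEF-H1-/- DCs (2.13%, against 9.52% of all genes) and 9 lower (4.79%, against 10.0%), together 13 members or 6.91%, against 19.6% of all genes. The 4 higher genes were Zfp930 (0.98), Zfp366 (0.81), Zfp932 (0.70) and Zfp951 (0.56), all of which fell in WT DCs. The 9 lower genes were Zfp608 (-0.74), Zfp948 (-0.72), Zfp821 (-0.68), Zfp189 (-0.61), Zfp523 (-0.60), Zfp954 (-0.59), Zfp52 (-0.58), Zfp260 (-0.56) and Zfp382 (-0.54). The intervals were also apart for 12 of the 13 (6.38% of the members, against 13.2% of all genes), the exception being Zfp382. This comparison shares its treated WT libraries with the WT drug comparison, so that both rest on the same treated WT value.

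The members were then set beside other genes of like level, since most of them were low. From 2 to 5 FPKM, averaged over the groups, the 78 members had a median difference of -0.12 in treated WT DCs and the other genes -0.11, and 14.1% of the members against 25.3% of the other genes passed 0.5. From 5 to 10 FPKM the medians were 0.06 and -0.07, with 13.8% and 24.4% past the threshold. From 10 to 20 FPKM the 32 members had a median of 0.20 and the other genes 0.01, while 3.12% and 23.3% passed. At 20 FPKM and over the medians were 0.01 for 12 members and 0.10 for the other genes, with 8.33% and 22.9% past the threshold. The share of changed members was therefore below that of other genes at each level, whereas the medians were alike only from 2 to 5 FPKM. In the bin under 2 FPKM there were only 8 members.

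**Figure D3:**
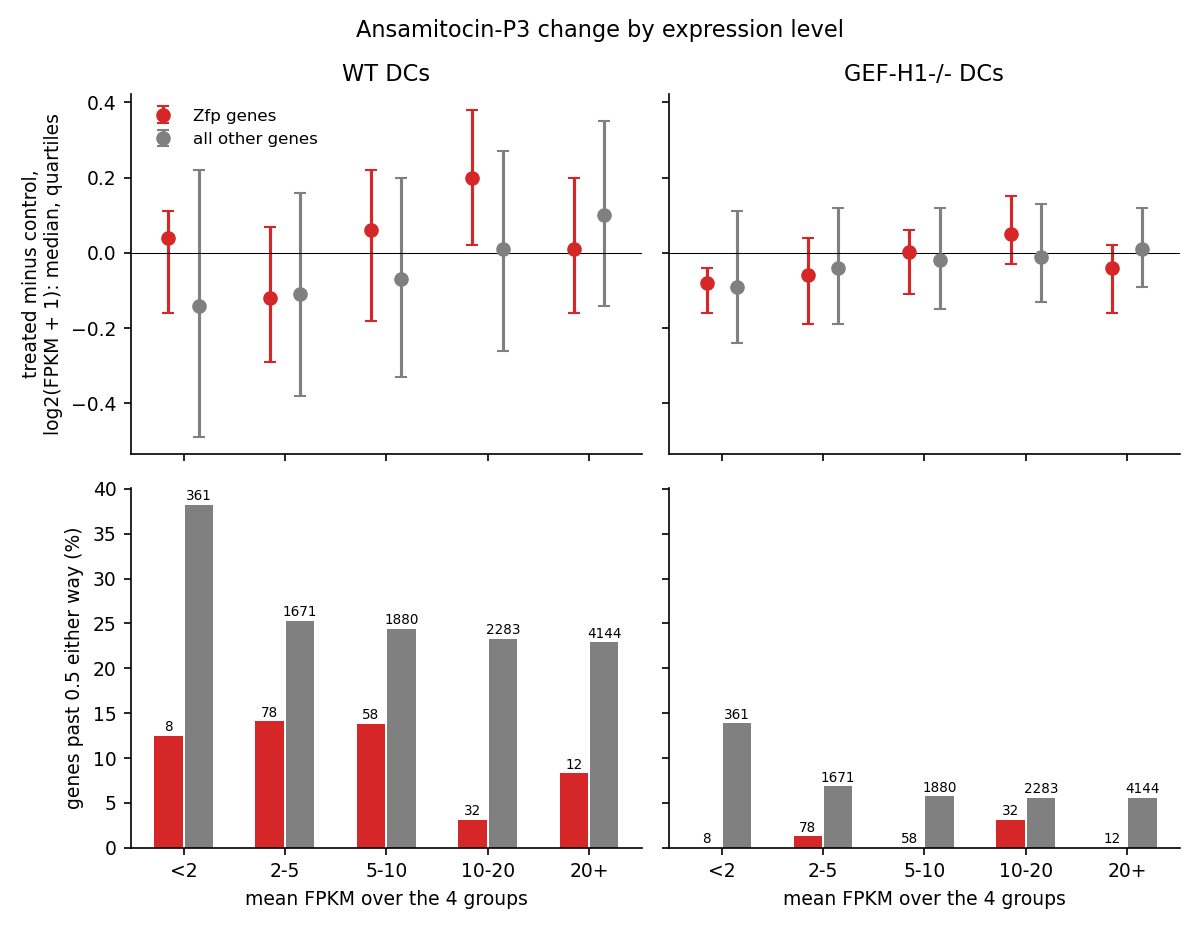
Upper panels, median (point) and quartiles (bars) of the treated minus untreated difference on the log2(FPKM + 1) scale by mean FPKM, for the 188 Zfp genes (red) and all other genes (grey); lower panels, the percentage past 0.5 either way, with the number of genes above each bar. In WT DCs the red bars of the bins from 2 to 5 and from 10 to 20 FPKM stand at 14.1 and 3.12%, next to grey bars of 25.3 and 23.3%.

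The members of known role were few in each list, and with 24.0% of all genes and 11.7% of the members past the threshold in WT DCs, a count of 0 or 1 in such a list is not a result about the role. In the ribosome list, Zfp598, which senses collided ribosomes, stood at 18.3, 20.6, 19.7 and 20.3 FPKM in untreated WT, treated WT, untreated GEF-H1-/- and treated GEF-H1-/- DCs, and neither Zfp593 nor Zfp622 passed the threshold in a drug comparison. None of the 5 RNA-binding members in the table changed in WT DCs. Their values ran from -0.24 for Zfp326 to 0.29 for Zfp106. None of the 6 general DNA-binding factors changed, although 5 of 6 were above 0. Zfp335 came nearest, at 9.502 and 13.8 FPKM in WT DCs, a difference of 0.50 that fell just short of the threshold, and 10.0 and 11.9 FPKM in GEF-H1-/- DCs. Zfp410, an activator of the chromatin remodeller gene Chd4, stood at 12.8 and 16.3 FPKM in WT DCs, against 10.6 and 11.8 in GEF-H1-/- DCs. Of 7 chromatin and DNA repair members none changed, the nearest being Zfp609 (0.45) and Zfp644 (0.44), a partner of the histone methyltransferase G9a. Of the 4 retroelement and imprint silencing members only Zfp932 changed, while Zfp445 stood between 16.2 and 17.1 FPKM in all 4 groups. Zfp809, which silences proviral DNA, stood at 10.9 and 13.2 FPKM in WT DCs, but its intervals were wide, 4.61 to 17.1 FPKM in the untreated group.

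The corepressors that KRAB proteins act with were measured as a pathway list, of which 17 of 19 names were in the table. In treated WT DCs 5 of the 17 fell and none rose, against 11.1% and 12.9% of all genes, with a median of -0.15 compared with 0.01 over all genes. Cbx3 and Cbx5, which encode HP1 proteins, fell by 0.68 and 0.66, the DNA methyltransferase gene Dnmt1 by 0.61, Setdb1 by 0.53 and Uhrf1, whose product guides DNMT1 to newly replicated DNA, by 0.50, just past the threshold. Of these 5, only Cbx5 had untreated and treated WT intervals that were apart (14.2 to 23.7 and 9.2 to 13.7 FPKM). Those of Cbx3, Dnmt1, Setdb1 and Uhrf1 overlapped, so their falls were not resolved. Trim28 stood at 67.9 and 56.6 FPKM, a difference of -0.26, within the threshold, and Chd4 at 51.3 and 67.3 FPKM. In GEF-H1-/- DCs none of the 17 passed the threshold and the median was -0.13. Without drug only Chd3 differed, at 2.25 FPKM in WT, against 3.79 in GEF-H1-/- DCs. Several of the genes that fell, such as Dnmt1 and Uhrf1, are also known as genes of DNA replication in dividing cells.

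For 187 of the 188 members a coding transcript was found in GENCODE M21. Translated, they held 580 residues and 9 C2H2 finger motifs at the median. The largest array was that of Zfp142 with 36 motifs, and 5 members, Zfp259, Zfp330, Zfp703, Zfp839 and Zfp935, held none of this form. In treated WT DCs the 36 members with 0 to 4 motifs had a median difference of 0.06, with 2 rises and 0 falls past the threshold. The 61 members with 5 to 9 motifs had a median of 0.07, with 4 rises and 1 fall, and the 90 members with 10 or more had -0.05, with 4 rises and 10 falls. Of the 11 falls in genes with a coding transcript, 10 were thus in the class with the longest arrays, the exception being Zfp61 with 8 motifs. The classes also differed in level, with median FPKM of 9.42, 6.87 and 4.33, and whether array length or level goes with the falls was not tested.

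A KRAB A box match was found in 66 members. Their median difference in treated WT DCs was -0.09, with 4 rises and 3 falls, and that of the 121 others 0.06, with 6 rises and 8 falls. A wider match that also accepts tyrosine in place of phenylalanine at its first residue, chosen after the data were seen, took in 75 members, with a median of -0.11, 4 rises and 7 falls. The 4 falls that it added were Zfp930, Zfp932, Zfp873 and Zfp951. Under 5 FPKM the 50 members with the wider match had a median of -0.16 and the 35 others -0.03. At 5 FPKM and over the 25 with the match had 0.02 and the 77 others 0.13. In the knockout the medians of members with and without the wider match were -0.04 and -0.0037, with no change past the threshold among the former.

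**Figure D4:**
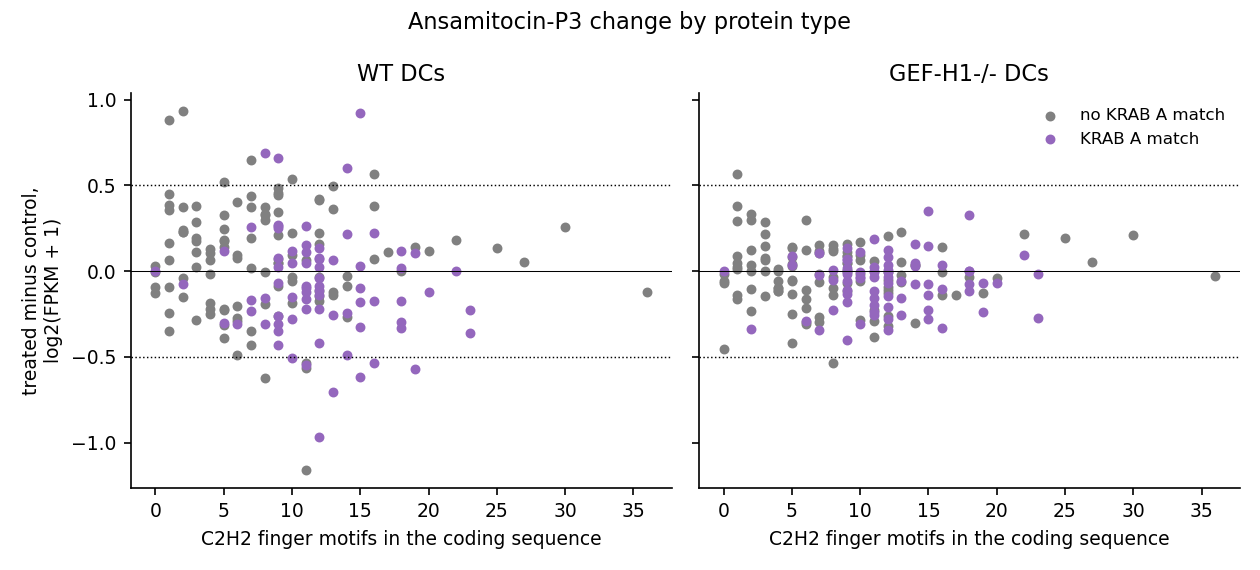
Treated minus untreated difference on the log2(FPKM + 1) scale against the number of C2H2 finger motifs for 187 Zfp genes, in WT DCs (left) and GEF-H1-/- DCs (right); purple points have a KRAB A box match with phenylalanine or tyrosine at its first residue, grey points none, and dotted lines mark 0.5 either way. In WT DCs 10 of the 11 points below -0.5 lie at 10 or more motifs.

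Since the reads were 35 bases long and paired, the share of each member's 35-base stretches that also occur in transcripts of other genes was counted. A pair of reads holds more sequence than 1 such stretch, which makes a fragment less ambiguous than its stretches. However, only exact matches to annotated transcripts in the same orientation were counted, so near matches were missed. The share is therefore a rough guide to how often a fragment was ambiguous, and not a bound. It was 0.504% at the median. In 71 members it was 0, in 29 over 10% and in 5 over 50%. Without those 29 and the 1 gene without a coding transcript, 19 of 158 members changed in WT DCs, a share of 12%, next to 11.7% of all 188.

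Of the 188 genes 89 lay in 16 genomic groups of at least 3 members whose starts were within 1 Mb of the next. In none of these groups did all members pass the threshold in treated WT DCs, and most groups held both signs. The group of 3 on chromosome 9 (22055459 to 22389206) lay wholly above 0, at a median of 0.26. So did the group of 3 on chromosome 7 (6131488 to 7121476), at 0.06. Zfp653, Zfp809 and Zfp810, which form the former group, were given the same merged locus, so their separate positions are not known. Their untreated and treated WT intervals overlapped, so their shared sign was not resolved. On chromosome 17 (mm10 21008940 to 22456689) 12 members lay side by side, of which Zfp948 rose by 0.92 and its neighbour Zfp52 by 0.60, while the other 10 ranged down to -0.22 with none past the threshold and 8 of the 12 were below 0. On chromosome 8 (69209045 to 69774911) Zfp930 fell by 0.97 next to Zfp868 at 0.25, Zfp869 at 0.08 and Zfp866 at -0.11. On chromosome 8 (71882067 to 71970333) Zfp961 fell by 0.54, with Zfp709 at -0.33 and Zfp617 at 0.22. In 8 members on chromosome 13 (67312997 to 67683512) the differences stayed between -0.23 and 0.12. The 89 grouped members had a median of -0.03 in treated WT DCs and the 99 others 0.06, with 11.2% and 12.1% past the threshold. In GEF-H1-/- DCs 60 of the 89 were below 0, at a median of -0.06, and 47 of the 99.

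**Figure D5:**
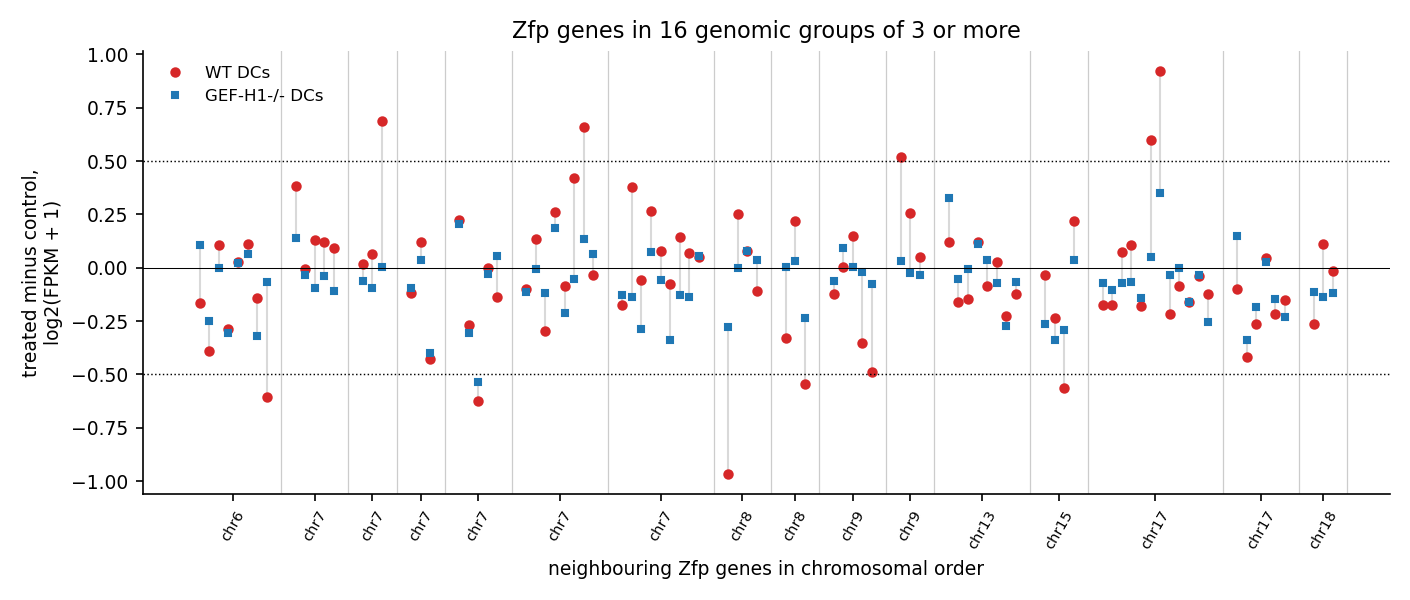
Treated minus untreated difference on the log2(FPKM + 1) scale for 89 Zfp genes in 16 genomic groups of at least 3 neighbours, in chromosomal order within each group (not to genomic scale), in WT DCs (red circles) and GEF-H1-/- DCs (blue squares) joined by a grey line; dotted lines mark 0.5 either way. Single genes pass 0.5 beside neighbours within it, as in the group of 12 on chromosome 17, where 2 rose. Zfp653, Zfp809 and Zfp810 on chromosome 9 share a merged locus, so their order is not known.

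Promoter sequences from RefSeq, 1 window of fixed length around each gene start (GRCm38.p6) were matched for 153 members, 194 promoters in all. They held 17 CpG at the median, compared with 21 in promoters of all genes that passed the 2 FPKM limit and 7 in all promoters. The AP-1 motif TGACTCA, searched on both strands, occurred in 3.61% of the members' promoters, in 3.85% of those of all genes over the limit and in 5.20% of all promoters. The ETS motif CCGGAAG, whose letters do not overlap with it, occurred in 19.1%, 18.7% and 8.86%. For both motifs the members were close to other expressed genes.

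Other zinc finger families passed the threshold in treated WT DCs as follows. Of 33 Zbtb genes, which pair fingers with a BTB domain, 6 rose and 3 fell, or 27.3%, with a median of 0.12. Of 15 Zc3h genes, which encode CCCH fingers that bind RNA, 3 rose and 1 fell, with a median of 0.12. None of the 13 Zscan and Zkscan genes, which carry a SCAN domain, passed, with a range of -0.50 to 0.34. The share of 11.7% among the Zfp genes thus stood between that of the SCAN family and the 24.0% of all genes, and the difference between families was not tested.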

How the data were processed

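RNA of mouse bone marrow-derived DCs, 8 libraries in 4 groups of 2, was sequenced by the authors after poly(A) selection with a stranded kit, as paired 35-base reads. The deposited table holds FPKM per gene and group with Cuffdiff 95% intervals on mm10, which the authors made with the replicates of a group combined. The submitters' processing notes name Cuffdiff, and the aligner and strand option behind this table are not given in the sources used here. The study's methods state stranded counting for a separate count table, not used here. The WT columns carry no genotype in their names and were taken as the 2 groups left after the knockout columns. Depth reached per library is unknown (the study's methods give a target only), and intervals cover the error that Cuffdiff estimated.

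With 1 value per group no test was made. Differences were taken as log2(FPKM + 1), and a gene was called changed past 0.5, read against all 10527 genes with valid status and at least 2 FPKM in a group (107 of 23356 genes had another status in some group). Members and lists were chosen with earlier results of these data known. Named genes were the 10 members highest on average, the 8 largest rises and falls in WT DCs, 5 in GEF-H1-/- DCs, between untreated groups and in the difference of effects, 3 between treated groups, members of function lists, the corepressor list and the 3 genes on either side of the limit. Further genes past a threshold, neighbours within a genomic group and relatives were named after their values were seen. Finger motifs (C, 2 to 4 residues, C, 12 residues, H, 3 to 5 residues, H) and the KRAB A box match (F, any residue, D or E, V or L, 3 to 8 residues, EW) were counted in coding sequences of GENCODE M21 translated with Biopython 1.88, using Python 3.11.15, numpy 2.4.6 and pandas 2.3.3. The calculation was tested on simulated data. Alternatives were pseudocounts of 0.1 and 5 FPKM, limits of 1 and 5 FPKM, a limit on the mean, rescaling, non-overlapping intervals and a threshold of 1.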

Additional observations from a re-analysis of the deposited data

How the results depend on the processing

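The number of members past the threshold depended on the pseudocount, the FPKM limit and the threshold. With a pseudocount of 5 FPKM it went from 22 to 3 members for the drug in WT DCs, from 2 to 0 for it in GEF-H1-/- DCs, from 13 to 1 between the treated groups and from 11 to 0 for the difference of drug effects. With 0.1 FPKM it was 4 in GEF-H1-/- DCs, 1 between the untreated groups, 24 between the treated groups and 18 for the difference of effects. With a limit of 5 FPKM it was 12, 1, 8 and 6 in WT DCs, GEF-H1-/- DCs, between the treated groups and for the difference, of 112 members. With a limit of 1 FPKM it was 2 between the untreated groups, of 239 members. At a threshold of 1 it was 1 in WT DCs, and 0 in the knockout, between the treated groups and for the difference of effects. With tyrosine accepted in the KRAB match, 11 in place of 7 matching members changed in WT DCs. Under each pseudocount, limit and threshold the share of members past the threshold in WT DCs was below that of all genes, from 0.532% against 5.29% at a threshold of 1 to 16.5% against 28.3% with a pseudocount of 0.1 FPKM. The median of the members in WT DCs was -0.08 with the limit of 1 FPKM and 0.09 with that of 5 FPKM, compared with 0.02 at 2 FPKM. Rescaling used factors of 0.9929 to 1.008 for the groups. With it the count was 23 in WT DCs and 14 between the treated groups, and the median in WT DCs was 0.01. The other counts stayed as they were. No paired analysis was possible because the table holds 1 value per group, for which reason no replicate could be left out either. The low FPKM of most members limits their precision.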

Other observations

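Between 1 and 2 FPKM lay 51 further genes of the same naming, outside the limit used in the report, and 5 of them fell by over 0.5 in treated WT DCs while none rose, against 10.5% of all 870 genes between these limits that fell and 6.55% that rose. This count of falls is near the share of all genes between these limits and is not read as a trait of the Zfp genes. The 5 were named after their values were seen. Zfp934 stood at 1.47 FPKM (95% interval 0.992 to 1.95) in untreated and 0.477 (0.249 to 0.705) in treated WT DCs, and at 1.60 and 1.12 in GEF-H1-/- DCs. Zfp808 stood at 1.80 and 0.717 FPKM in WT DCs and at 1.34 and 1.47 in GEF-H1-/- DCs. Zfp39 stood at 1.46 and 0.624, Zfp97 at 1.46 and 0.677 and Zfp566 at 1.58 and 0.796 FPKM in untreated and treated WT DCs. The intervals were apart in 4 of these 5 genes, the exception being Zfp566, and none of the 5 passed the threshold in GEF-H1-/- DCs. Between the untreated groups, Zfp507 stood at 0.649 FPKM in WT and 1.36 in GEF-H1-/- DCs with intervals apart, whereas Zfp750, at 0.917 and 1.95 FPKM, had overlapping ones.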
